A study of Mus musculus with 6 samples.

Results

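The immunoglobulin heavy chain variable (V) genes of the mouse were followed through RNA-seq libraries of haematopoietic stem cells. They were taken as every gene of the deposited expression table whose symbol begins with Ighv, which gave 185 of 55487 genes, with 183 distinct symbols. The set was chosen by gene symbol together with its deposited counts in Mmrn1-low against Mmrn1-high libraries, so differences between those groups are given below as descriptions and without p-values. The RNA came from murine bone marrow cells that carry the label LT-HSC (long-term haematopoietic stem cell, the source of all blood lineages) and the genotype label Mmrn1-GFP type, where GFP is green fluorescent protein. Mmrn1 encodes multimerin 1, a protein of platelets and endothelium. There were 3 libraries of cells called Mmrn1-low and 3 of cells called Mmrn1-high, and every sample carried the same genotype label. The age, sex and strain of the mice, the design of the GFP allele, the surface markers of the sort and the origin of the replicates (separate mice or a pool) are not stated. The spread between replicates may therefore be technical.

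The libraries held 11595104 to 30909990 counts. Of 12 genes on a list of stem and early progenitor markers, 11 were higher in Mmrn1-high cells by the test described below, where 30.7% of all tested genes were, and Hoxb5, named after its values were seen, was not called. Slamf1, which encodes the LT-HSC marker CD150, was at 1.54 ± 0.377 CPM (counts scaled to library size; SD, n = 3) in Mmrn1-low libraries and at 4.92 ± 0.403 in Mmrn1-high ones. Flt3 and Cd34, whose proteins are low on mouse LT-HSCs in common sorting schemes and high on progenitors, were on that list and abundant in both groups, at 156 ± 1.38 and 546 ± 4.33 CPM for Flt3 and 347 ± 10.4 and 829 ± 16.3 CPM for Cd34.

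A heavy chain variable region is assembled in developing B cells by joining a V, a D and a J segment, and the joined exon is spliced to a constant region such as that of Ighm (IgM) or Ighg2c (an IgG). Each V gene has its own promoter, but strong transcription follows joining, which brings the promoter near the enhancers of the locus, and it is highest in antibody-secreting plasma cells. A B cell expresses a single joined heavy chain, so the V genes seen in a mixture depend largely on which B lineage clones it holds. Bone marrow houses both developing B cells and long-lived plasma cells, whereas stem cells carry the locus unjoined. All 185 genes lay on chromosome 12 (GRCm38), between positions 113572927 and 116010093, with low coordinates nearest the D, J and constant segments. GENCODE M21 annotates 113 of them as V genes with an open coding frame, 70 as V pseudogenes and 2 as duplicate plus-strand models.

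The coding sequences of 5 members are shown as examples of abundant members and of members that differed strongly between the groups. Each line holds the last 300 coding bases, 5′ to 3′ on the minus strand, from the GENCODE M21 transcripts (GRCm38). Capitals mark the last in-frame TGT codon, for the cysteine that precedes the third complementarity-determining region, and the bases after it, where the V segment is joined to D. Of 110 V genes whose coding sequence begins with ATG, 106 had this codon within 20 bases of the coding end. Ighv1-5 (chr12:114513330-114513629) and Ighv8-12 (chr12:115647945-115648244) were the most expressed members in Mmrn1-low and in Mmrn1-high libraries, Ighv5-16 (chr12:113838526-113838825) and Ighv4-1 (chr12:113948282-113948581) were abundant or present in Mmrn1-low libraries and nearly or fully lacking in Mmrn1-high ones, and Ighv3-1 (chr12:113964388-113964687) had the opposite pattern.
Ighv1-5: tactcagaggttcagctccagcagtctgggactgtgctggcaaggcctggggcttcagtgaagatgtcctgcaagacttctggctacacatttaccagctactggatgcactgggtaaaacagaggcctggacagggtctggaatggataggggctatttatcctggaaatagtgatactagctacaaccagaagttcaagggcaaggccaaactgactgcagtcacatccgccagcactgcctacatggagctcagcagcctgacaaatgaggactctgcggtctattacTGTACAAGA
Ighv8-12: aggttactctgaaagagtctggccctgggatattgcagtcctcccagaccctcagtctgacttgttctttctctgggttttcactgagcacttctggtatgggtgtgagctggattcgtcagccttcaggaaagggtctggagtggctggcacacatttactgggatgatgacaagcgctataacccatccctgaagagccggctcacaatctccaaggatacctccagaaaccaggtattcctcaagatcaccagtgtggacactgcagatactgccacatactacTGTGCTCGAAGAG
Ighv5-16: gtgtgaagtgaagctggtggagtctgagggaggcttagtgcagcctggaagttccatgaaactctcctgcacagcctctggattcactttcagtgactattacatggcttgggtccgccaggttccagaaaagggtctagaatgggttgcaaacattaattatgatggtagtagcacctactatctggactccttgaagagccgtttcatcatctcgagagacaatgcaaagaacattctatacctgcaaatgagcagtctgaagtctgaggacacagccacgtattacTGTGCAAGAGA
Ighv4-1: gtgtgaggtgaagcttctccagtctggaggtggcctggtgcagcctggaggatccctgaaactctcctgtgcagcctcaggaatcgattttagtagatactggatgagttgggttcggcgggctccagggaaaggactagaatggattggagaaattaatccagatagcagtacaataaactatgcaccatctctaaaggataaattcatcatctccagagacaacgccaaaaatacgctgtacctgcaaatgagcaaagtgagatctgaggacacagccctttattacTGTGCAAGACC
Ighv3-1: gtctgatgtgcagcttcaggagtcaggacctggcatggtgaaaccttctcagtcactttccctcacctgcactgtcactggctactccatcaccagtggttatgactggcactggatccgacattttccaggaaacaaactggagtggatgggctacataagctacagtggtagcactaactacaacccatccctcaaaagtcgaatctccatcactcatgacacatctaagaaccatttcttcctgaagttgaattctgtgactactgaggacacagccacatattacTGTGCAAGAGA

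Summed over all 185 genes, heavy chain V transcripts were 2.23-fold more abundant in Mmrn1-low than in Mmrn1-high libraries. The summed level was 351.5, 351.7 and 354.1 CPM (scaled with the TMM factors that correct library size for composition) in Mmrn1-low replicates 1 to 3, and 158.6, 158.8 and 157.2 CPM in Mmrn1-high replicates 1 to 3. The groups were thus far apart relative to the spread within each, at 352.4 ± 1.43 and 158.2 ± 0.872 CPM (SD, n = 3), a log2 ratio of -1.16. The raw counts behind these sums were 4767 to 10164 in Mmrn1-low and 1941 to 5150 in Mmrn1-high libraries. In bulk RNA, fewer cells of a type and less RNA per cell cannot be told apart. The heavy chain constant genes, summed, stood at 1599 ± 20.9 and 936.3 ± 14.9 CPM, a ratio of 1.71, and the kappa light chain V genes at 468.8 ± 2.95 and 216.8 ± 1.59 CPM, a ratio of 2.16. V counts per heavy chain constant count were 0.220 ± 0.00321 in Mmrn1-low and 0.169 ± 0.00183 in Mmrn1-high libraries (SD, n = 3), a difference in log2 of -0.38. Constant gene counts can include transcripts without a V exon, so this is not a ratio per joined transcript.

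**Figure D1:**
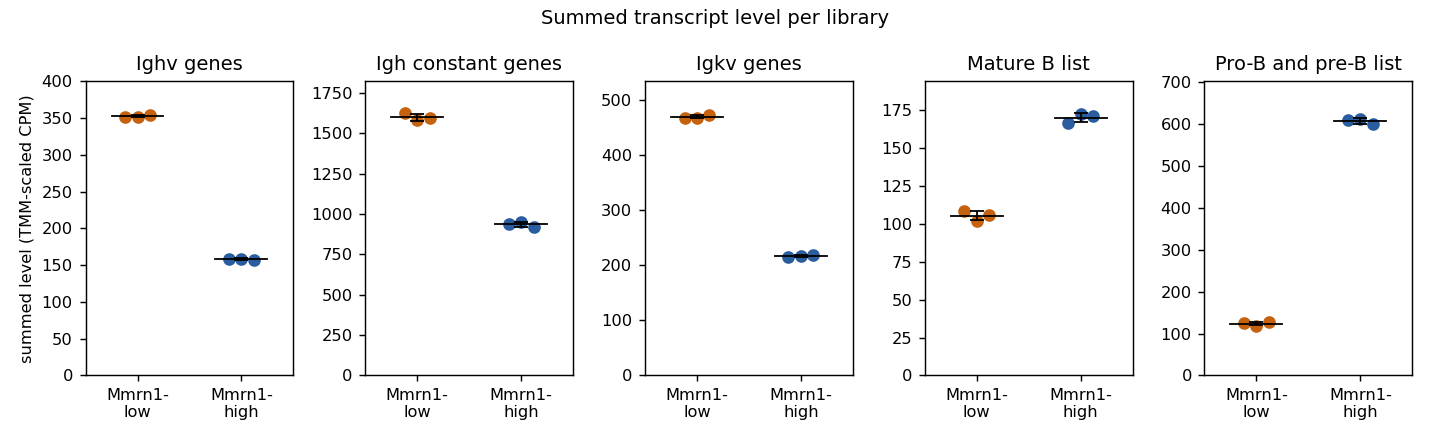
Summed TMM-scaled CPM in each of the 6 libraries (points; horizontal line, mean; bar, SD of 3) for heavy chain V genes, heavy chain constant genes, kappa V genes and the lists of mature B cell and of pro-B and pre-B cell genes, each on its own linear axis from 0. The immunoglobulin sums were higher in all 3 Mmrn1-low libraries, at 352.4 against 158.2 CPM for the V genes, and the sums of both B cell lists were higher in all 3 Mmrn1-high libraries.

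Lists of plasma cell genes and of B lineage genes moved in different directions beside this difference. Whether the cells that expressed them held a joined heavy chain was not tested. Of 14 tested genes on a plasma cell list, 7 were lower in Mmrn1-high cells by edgeR's quasi-likelihood test (Benjamini-Hochberg adjusted p under 0.05; 30.5% of all tested genes were called lower), 1 was higher and 6 did not pass. The whole list summed to 858.7 to 1001 CPM in Mmrn1-low and 441.6 to 536.8 CPM in Mmrn1-high libraries, most of it from secretory genes that other cells share. Fkbp11, an endoplasmic reticulum peptidyl-prolyl isomerase, had a log2 fold change (Mmrn1-high minus Mmrn1-low) of -2.48 ± 0.10 (SE), Creld2 one of -1.37 ± 0.04 and Edem1 one of -1.05 ± 0.03 (edgeR adjusted p = 3.73e-07, 5.72e-08 and 1.34e-07). Xbp1, a transcription factor that plasma cells need and that other cells also express, was at 291, 165 and 161 CPM in the Mmrn1-low and 57.4, 59.7 and 55.3 CPM in the Mmrn1-high libraries. It was among the 7 genes called lower, and Mmrn1-low replicate 1 stood apart in it. Prdm1, Irf4 and Slamf7, on the same list, had positive values of 0.448 ± 0.215, 0.281 ± 0.149 and 0.256 ± 0.278 (edgeR log2 fold change ± SE). None of these was called. Txndc5 (153 ± 3.93 and 143 ± 51.5 CPM) and Tnfrsf13b (87.0 ± 4.21 and 82.5 ± 3.69 CPM) were on the list too. Both were abundant in both groups and not called. Some other plasma cell genes were low in both groups. Tnfrsf17, the BCMA receptor, was at 0.105 to 0.317 CPM in Mmrn1-low and 0 to 0.335 CPM in Mmrn1-high libraries, and Mzb1 was at 3.39 ± 0.459 and 1.66 ± 0.594 CPM. Sdc1, which encodes CD138, went the other way, from 5.54 ± 0.643 to 12.4 ± 0.617 CPM (edgeR adjusted p = 4.37e-05).

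All 12 tested pro-B and pre-B cell genes were called higher in Mmrn1-high cells, where 30.7% of all tested genes were, and their list summed to 118.6 to 126.7 CPM in Mmrn1-low and 600.3 to 613.4 CPM in Mmrn1-high libraries. Dntt, the terminal transferase that adds bases at V(D)J joints, made up most of that sum, at 101 ± 3.41 and 544.5 ± 9.68 CPM (log2 fold change 2.44 ± 0.03 SE). The recombinase genes Rag1 (1.24 ± 0.353 and 4.39 ± 0.568 CPM) and Rag2 (1.12 ± 0.0878 and 4.24 ± 0.385 CPM) and the interleukin-7 receptor gene Il7r (2.64 ± 0.629 and 16.4 ± 2.18 CPM) were low in both groups and higher in Mmrn1-high cells (edgeR adjusted p = 1.41e-04, 2.3e-05 and 6.71e-06). Of 12 tested mature B cell genes, 7 were higher and 5 did not pass, with Cd72 at 1.58 ± 0.09 and Ebf1, a transcription factor of early B cells, at 1.52 ± 0.23 (edgeR log2 fold change ± SE). This list summed to 102.1 to 108.3 and 166.4 to 172.1 CPM. The mature B cell markers Ms4a1, Fcer2a and Cr2 were at or near 0 in both groups. Both B cell lists share Cd79a. The part of any of these cell types in the V gene difference was not tested.

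Single V genes differed far more from each other than the sum would show. Ighv1-5 was the most abundant member per length in Mmrn1-low cells, at 81.4 CPM per kb of exon, and its level was 32.0, 31.8 and 32.6 CPM in the Mmrn1-low libraries and 8.66, 9.62 and 7.57 CPM in the Mmrn1-high ones. The groups did not overlap, and the log2 fold change was -1.89 ± 0.09 (SE). In Mmrn1-high cells the most abundant member per length was Ighv8-12, at 28.3 CPM per kb against 42.6 in Mmrn1-low cells. Its level was 15.7, 14.02 and 16.03 CPM in Mmrn1-low and 8.99, 11.2 and 10.3 CPM in Mmrn1-high libraries, a log2 fold change of -0.58 ± 0.11 (SE). Ighv8-12 thus changed less than the sum, and Ighv1-5 more. Of the 10 members with the most CPM per kb in each group, 6 were shared.

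The other members among the 12 with the highest mean level ranged from a large deficit in Mmrn1-high cells to none. Ighv5-16 stood at 14.1, 14.98 and 13.8 CPM in Mmrn1-low and 0.980, 0.401 and 0.871 CPM in Mmrn1-high libraries, a 19.0-fold ratio of the means. It ranked after Ighv1-5 and Ighv8-12 per length in Mmrn1-low cells, at 37.6 CPM per kb, and stood at 1.98 CPM per kb in Mmrn1-high cells. Ighv1-26 (chr12:114788372-114788805) was at 12.3, 12.8 and 13.6 against 2.94, 2.40 and 2.95 CPM, a 4.67-fold ratio. Its nearest relative, Ighv1-18, was 96.9% identical in coding sequence, and 7.94% of its windows of 100 bases occurred in another member, so a part of its reads may not be assigned with certainty. Ighv9-3 (10.9 ± 0.508 and 3.76 ± 0.109 CPM), Ighv5-17 (13.1 ± 2.20 and 4.63 ± 0.993 CPM) and Ighv3-8 (8.99 ± 1.19 and 3.79 ± 0.308 CPM; SD, n = 3) were 2.37-fold to 2.89-fold higher in Mmrn1-low cells. Ighv3-6, Ighv7-1 and Ighv1-9 were 1.58-fold to 1.65-fold higher there. Ighv1-82 (chr12:115952538-115953005), with 8.95, 9.37 and 8.12 against 7.35, 6.72 and 6.57 CPM, differed least among those that did not overlap, and its call was lost under 6 alternatives, among them DESeq2, library size alone and leaving out Mmrn1-low replicate 2, Mmrn1-high replicate 2 or Mmrn1-high replicate 3. Ighv1-53 (chr12:115158403-115158835) was the exception among the 12: its 6.85, 5.09 and 6.17 CPM in Mmrn1-low and 7.52, 6.26 and 8.37 CPM in Mmrn1-high libraries overlapped.

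**Figure D2:**
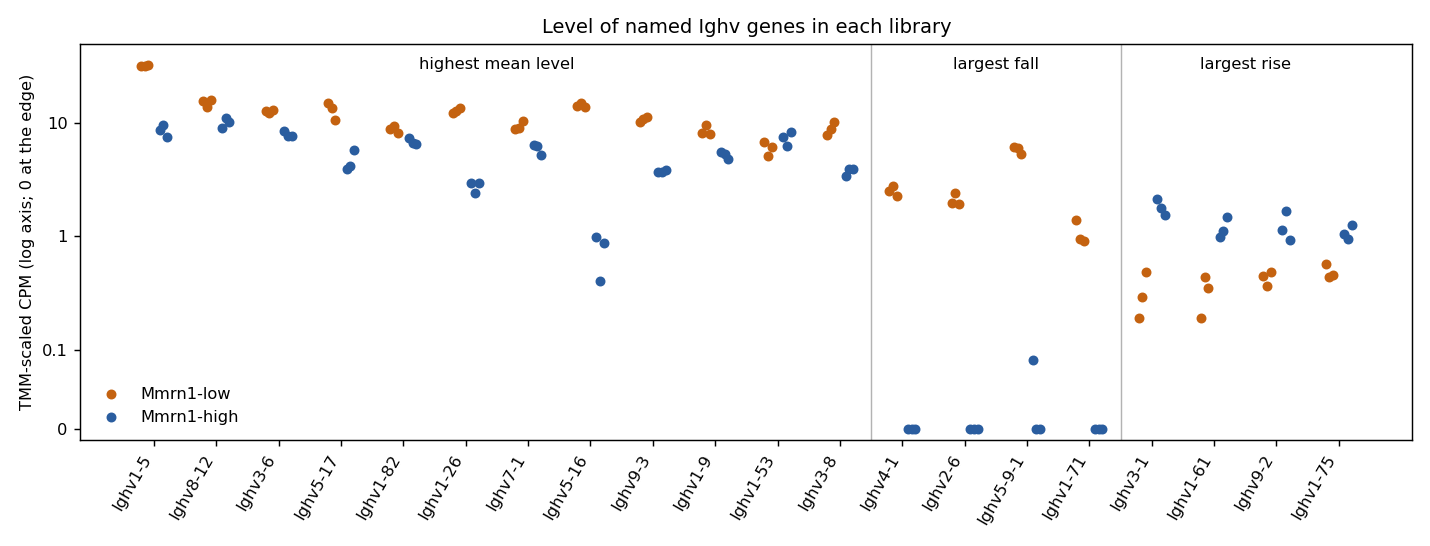
TMM-scaled CPM of 20 heavy chain V genes in each library (points; log axis, 0 drawn at the lower edge), for the 12 with the highest mean level and the 4 with the largest fitted difference in each direction. Ighv4-1, Ighv2-6 and Ighv1-71 had no count in any Mmrn1-high library, and Ighv3-1, Ighv1-61, Ighv9-2 and Ighv1-75 were higher in all 3 Mmrn1-high libraries.

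A set of V genes was present in every Mmrn1-low library and all but missing from the Mmrn1-high ones. With at least 50 counts over the 3 Mmrn1-low libraries and 3 or fewer over the 3 Mmrn1-high libraries there were 7 such genes, holding 5.50% of the Mmrn1-low V counts, and 0 genes of the reverse kind. With at least 20 counts in place of 50, there were 11 genes and 1 of the reverse kind. The share of all tested genes that meet this rule is not given here. Mmrn1-high libraries also held fewer V counts, which makes the reverse kind harder to reach. The set of 7 was defined after the values were seen. Ighv4-1, the sole open-frame member of its family, had 40, 38 and 65 counts in the Mmrn1-low libraries (2.54, 2.80 and 2.26 CPM) and 0 in each Mmrn1-high library. Against a floor of 3 counts over the Mmrn1-high group, it was at least 50.4-fold higher in Mmrn1-low cells, and by the same floor Ighv2-6 (chr12:113716670-113717103) was at least 42.1-fold higher (1.97, 2.43 and 1.95 CPM). Ighv5-9-1 (chr12:113736111-113736630) had 98, 82 and 153 counts against 1, 0 and 0, which rest on a single count in the Mmrn1-high group. The ratio of its counts pooled over each group, per pooled TMM-scaled library size, was 342, with an exact 95% interval of 61.0 to 13552 that covers counting error only. This is neither a ratio of mean CPM nor a bound from the floor, so it cannot be ranked against the values of Ighv4-1 and Ighv2-6. Ighv1-84 (chr12:115980702-115981134), near the far end of the locus, had 49, 46 and 94 counts against 0, 3 and 0, a ratio of pooled counts of 64.7 (interval 21.8 to 317). The same held for Ighv1-20, with 106 summed counts against 1.

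The remaining pair of this set, Ighv1-62-2 and Ighv1-71, may be read from the same transcripts. Their coding sequences of 359 bases differ by 1 base, and 90.3% and 96.9% of their windows of 100 bases occur in another member. The first 40 coding bases are shown with that base in capitals, for Ighv1-62-2 at chr12:115446811-115446850 and for Ighv1-71 at chr12:115742608-115742647, both on the minus strand.
Ighv1-62-2: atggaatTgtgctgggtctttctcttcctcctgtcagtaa
Ighv1-71: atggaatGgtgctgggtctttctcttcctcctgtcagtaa
Ighv1-62-2 had 52, 52 and 70 counts in the Mmrn1-low libraries and Ighv1-71 had 22, 13 and 26, so the split between them is uncertain. In the Mmrn1-high libraries Ighv1-62-2 had 1, 0 and 0 counts and Ighv1-71 had 0 in each, so both were nearly or fully lacking there. With the floor of 3 counts, Ighv1-71 was at least 21.6-fold higher in Mmrn1-low cells. Of the 73 members tested, 25 shared at least 1 window of 100 bases with another member, and 6 shared over 20% of their windows.

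Fewer V genes were more abundant in Mmrn1-high cells, and at low levels. Ighv3-1 had 3, 4 and 14 counts in Mmrn1-low and 26, 58 and 23 counts in Mmrn1-high libraries, or 0.190, 0.295 and 0.488 against 2.12, 1.79 and 1.54 CPM, a 5.60-fold ratio. Ighv1-61 was 3.63-fold, Ighv9-2 2.88-fold and Ighv1-75 2.24-fold higher in Mmrn1-high cells, each below 2 CPM in every library, and DESeq2 did not call Ighv1-75. Of these, Ighv1-61 is 98.6% identical to Ighv1-52, with 29.4% of its windows shared. Ighv3-5, named after its values were seen because it did not pass the filter on low counts, was at 0 in the Mmrn1-low libraries and at 9, 17 and 9 counts in the Mmrn1-high libraries, at least 12.01-fold higher there. Ighv1-59 and Ighv1-69, also chosen after their values were seen, had the highest levels among the members called higher in Mmrn1-high cells. Ighv1-59 was at 2.28 ± 0.0771 and 3.998 ± 0.560 CPM and Ighv1-69 at 2.57 ± 0.509 and 3.99 ± 0.170 CPM (SD, n = 3).

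All members are accounted for as follows. No count was found in any library for 76 of the 185 genes, 36 had counts but did not pass the filter, and 73 entered the edgeR fit of the whole table. Of those, 55 were called lower in Mmrn1-high cells, where 30.5% of all 15419 tested genes were, 9 were called higher, where 30.7% were, and 9 were not called. Of the 9438 genes called in all, 50.2% had the higher level in Mmrn1-high and 49.8% in Mmrn1-low cells. With library size alone in place of TMM, the median of all genes moved to 0.15, and these shares to 66.0% and 34.0%. Every Mmrn1-low library lay above every Mmrn1-high library for 58 of the 73 (33.7% of all tested genes), the reverse held for 9 (34.1%), and 6 overlapped, where 67.8% of all tested genes did not overlap in either direction. The median log2 fold change of the 73 was -1.31, with quartiles at -2.25 and -0.49, beside a median of 0.01 and quartiles of -0.32 and 0.45 over all tested genes. A gene can pass the filter through the group in which it is high, and this contrast was part of the choice of genes, so these counts are descriptions. The 3 tested genes with no Mmrn1-high count lie below the median both as fitted and at their lower bounds, so it is -1.31 either way.

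Counts followed the annotated coding potential closely. The 113 open-frame V genes held 99.7% of all V counts, and 95 of them had a count. Of the 70 pseudogenes, 14 had a count and none passed the filter on low counts, and the highest, Ighv1-41, had 35 counts over 6 libraries. The 2 plus-strand models had none.

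V genes from one end of the locus to the other were detected. The 2 detected genes nearest the constant region were Ighv5-2, with a single count in 1 library, and Ighv2-2, at 6.03 ± 0.516 and 2.49 ± 0.332 CPM, with 24.1% of its windows shared. The 2 farthest from it were Ighv1-84 and Ighv1-85, and these neighbours went opposite ways: Ighv1-85 was at 1.08, 1.33 and 1.08 CPM in Mmrn1-low and 1.96, 2.56 and 1.74 CPM in Mmrn1-high libraries, though DESeq2 did not call it. When the open-frame genes were put in order and cut into 4 stretches, the stretch nearest the constant region (29 genes, Ighv5-2 to Ighv16-1) held 27.7 ± 1.21% of the V counts in Mmrn1-low and 23.9 ± 0.572% in Mmrn1-high libraries. The farthest stretch (28 genes, Ighv8-8 to Ighv1-85) held 24.9 ± 0.730% and 31.7 ± 0.883%. The ratio of Mmrn1-low to Mmrn1-high level was 2.59, 2.55, 2.17 and 1.75 from the nearest to the farthest stretch. These ratios are of sums, which abundant genes weigh most. In the same order, the median log2 fold change of the tested genes was -1.25, -1.64, -1.37 and -0.63, so the medians gave no steady gradient.

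**Figure D3:**
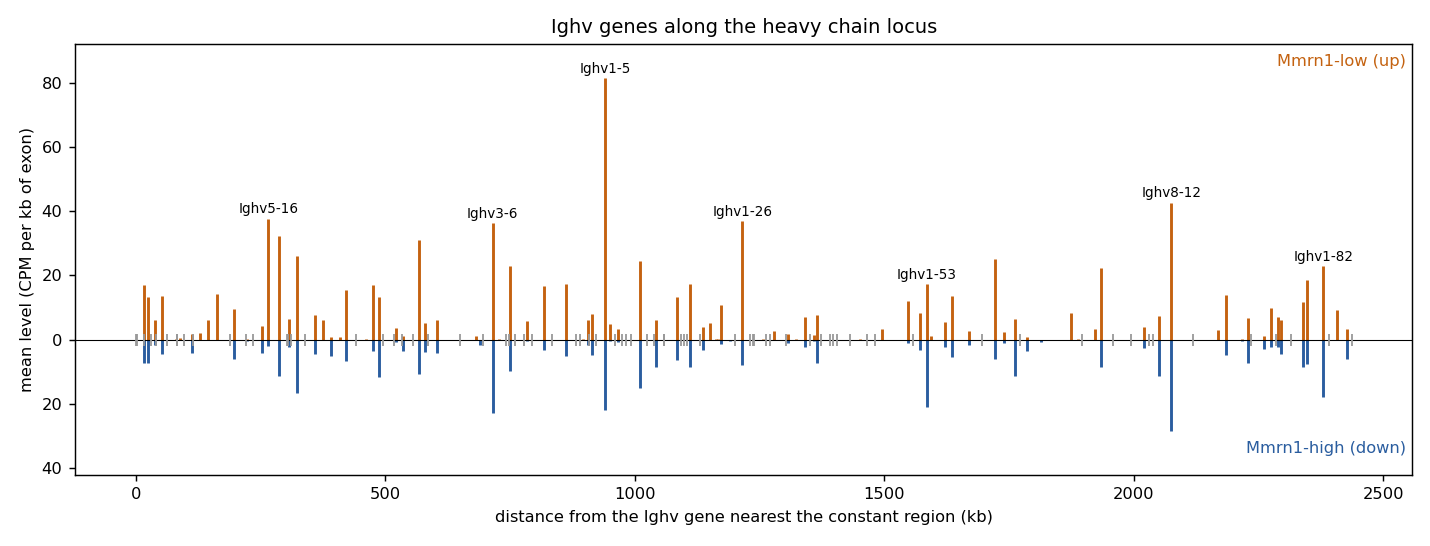
Mean level of each heavy chain V gene (TMM-scaled CPM per kb of exon, union of annotated exons) against its distance in kb from the V gene nearest the constant region, with Mmrn1-low drawn upward, Mmrn1-high downward and grey ticks for the 76 genes with no count. Ighv1-5 reached 81.4 CPM per kb in Mmrn1-low and 21.8 in Mmrn1-high cells, and detected genes lay along the whole locus.

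By family, which groups V genes of similar sequence, the shift was uneven too. The Ighv1 family, with 93 of the 185 genes, held 48.7 ± 0.640% of V counts in Mmrn1-low and 52.9 ± 0.830% in Mmrn1-high libraries (SD, n = 3). The Ighv5 family showed the largest loss of share, from 13.2 ± 1.06% to 7.35 ± 1.005%, and its summed level was 3.99-fold higher in Mmrn1-low cells. Ighv6, Ighv10 and Ighv11 were 4.08-fold, 5.43-fold and 5.003-fold higher there. Ighv13 and Ighv4, each with 1 detected gene, differed more. Ighv13 was 21.5-fold higher in Mmrn1-low cells, at 2.14 ± 0.409 against 0.0996 ± 0.147 CPM, and Ighv4 had no Mmrn1-high count. Ighv3, Ighv7 and Ighv14 were 1.53-fold to 1.58-fold higher there and so took a larger share in Mmrn1-high cells, Ighv3 going from 6.37 ± 0.482% to 9.001 ± 0.281%. Ighv11 rests on 2 genes of 98.9% coding identity. Its member Ighv11-1, named after its values were seen, had 0, 0 and 22 counts in the Mmrn1-low libraries while Ighv11-2 had 107, 121 and 223.

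**Figure D4:**
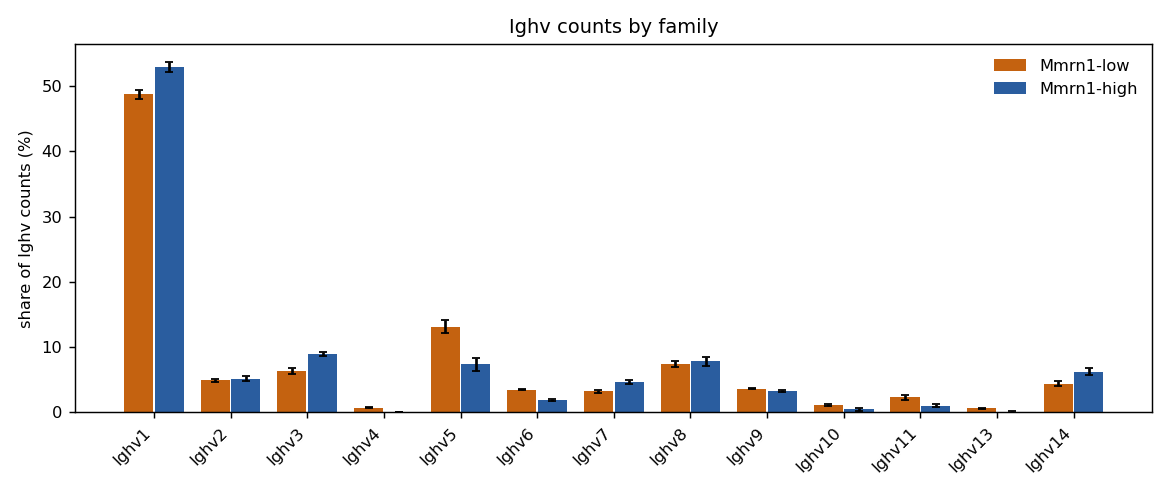
Share of each library's V counts held by each Ighv family with a count (bars, mean of 3 libraries; error bars, SD) in Mmrn1-low and Mmrn1-high libraries, on a linear axis from 0. Ighv1 held 48.7% and 52.9%, and Ighv5 13.2% and 7.35%.

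The pattern of V genes repeated almost exactly between libraries of a group and changed between groups. For each pair of libraries, a chi-square of V gene counts was divided by its degrees of freedom, so that counting noise alone gives a value near 1, using genes with at least 10 counts over the pair. It was 1.09 to 1.72 for the 3 Mmrn1-low pairs, 0.775 to 1.44 for the 3 Mmrn1-high pairs and 10.1 to 24.1 for the 9 pairs across groups, where it also grows with depth. In terms that do not grow with depth, 28.8% to 30.2% of V counts would have to be moved to other genes to turn one library's pattern into another's across groups, against 6.73% to 6.77% within Mmrn1-low and 7.68% to 9.39% within Mmrn1-high. Kappa V genes had 0.971 to 1.31 within groups and 15.8 to 38.2 across. Over all other tested genes the value within groups was 6.38 to 10.7 and across groups 67.5 to 158, on far more counts per gene. Of the counts of these other genes, 2.997% to 3.26% were placed differently within groups and 13.9% to 14.2% across. Counting noise raises this share where counts are few. The V genes rest on only 1941 to 10164 counts per library, so their shares cannot be compared directly with those of all other genes. Over the other tested genes, the median of the chi-square per gene was 0.787 to 1.20 within groups. For the V genes it was 0.296 to 0.799. Counting noise alone gives a median below 1, so the value near 1 does not apply to it. Over all other tested genes, every pair of libraries differed by more than counting noise, in a value that grows with depth. None of these values can tell separate mice from splits of a pool. Each library was counted as 1 sample, so the p-values given here rest on replicates that may be technical. Ighv11-1 added most within Mmrn1-low, where the value over the 3 libraries was 1.39 with it and 1.27 without it.

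**Figure D5:**
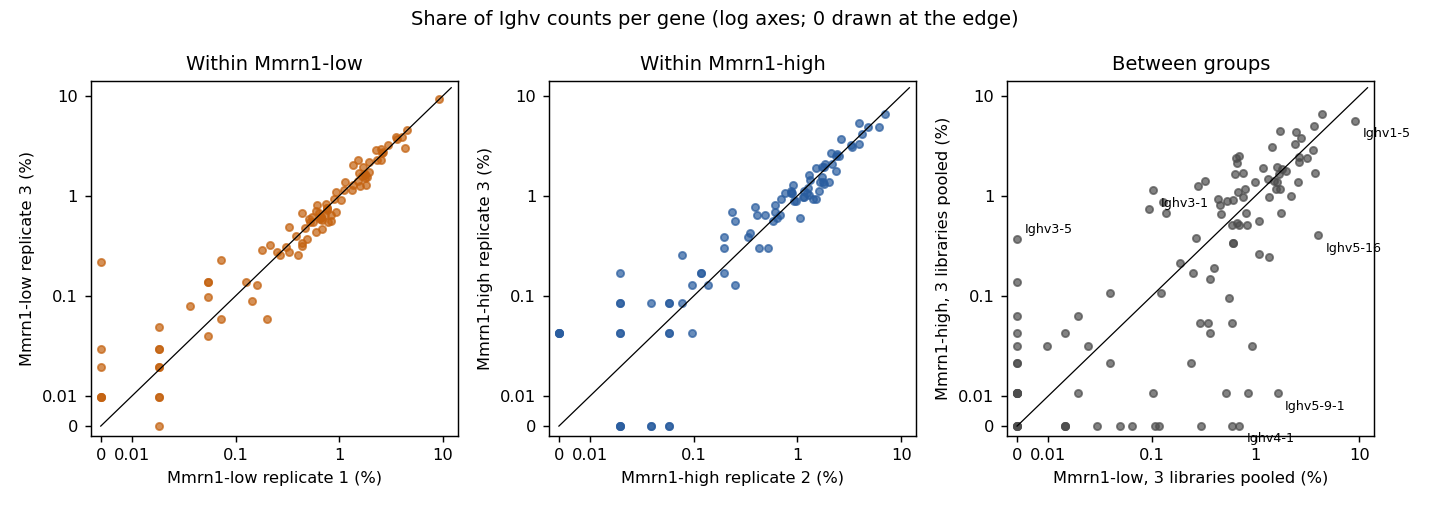
Share of V counts per gene (percent, log axes, 0 drawn at the edge) in a pair of Mmrn1-low libraries, a pair of Mmrn1-high libraries and the pooled groups against each other, with the line of equal share. Points follow the line within groups and scatter from it between groups, where Ighv5-9-1 and Ighv4-1 lie at or near the lower edge and Ighv3-1 and Ighv3-5 lie above the line.

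The evenness of use depended on the measure. The inverse Simpson index, the number of equally used genes that would give the same concentration, was 37.0 ± 0.320 in Mmrn1-low and 37.0 ± 0.785 in Mmrn1-high libraries, a difference within the spread. This rests on Ighv1-5, without which the index was lower in Mmrn1-high libraries by a difference of -6.98. The exponential of the Shannon entropy, which weighs rare genes more, was 52.8 ± 0.102 and 48.6 ± 0.911. The leading gene took 9.04% to 9.21% of V counts in Mmrn1-low (Ighv1-5) and 5.67% to 7.05% in Mmrn1-high libraries (Ighv8-12). Drawn down to the smallest library total, 11595104 counts, 88.3 ± 1.24 V genes would be expected with a read in Mmrn1-low and 77.6 ± 3.55 in Mmrn1-high libraries, against 91.3 ± 3.21 and 81.0 ± 6.24 at full depth. At an equal number of 1941 V counts the expectation was 84.0 ± 1.28 and 77.7 ± 3.62.

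The heavy chain constant genes did not move together. Their counts do not show which of their transcripts carried a V exon. Ighm, for IgM, was at 320, 312 and 322 CPM in Mmrn1-low and 306, 317 and 305 CPM in Mmrn1-high libraries and was not called (edgeR adjusted p = 0.266). Its log2 fold change of -0.04 turned to 0.11 with library size alone. The switched isotypes Ighg1 (250 ± 0.972 and 121 ± 0.497 CPM), Ighg2b (272 ± 0.996 and 98.5 ± 1.26 CPM) and Ighg2c (367 ± 9.67 and 170 ± 2.13 CPM) and Igha, for IgA (382 ± 15.97 and 232 ± 13.5 CPM), were lower in Mmrn1-high cells (edgeR adjusted p = 3.71e-08, 1.12e-08, 5.13e-08 and 6.27e-06). Ighg3 was at 7.93, 8.48 and 9.51 CPM against 0, 0.432 and 0 CPM (edgeR adjusted p = 3.06e-04). Ighd, for the IgD of naive B cells, was higher in Mmrn1-high cells, at 4.60 ± 0.882 against 0.638 ± 0.307 CPM (edgeR adjusted p = 9.44e-05). The share of Ighm among heavy chain constant counts was 19.9 ± 0.296% in Mmrn1-low and 33.0 ± 0.398% in Mmrn1-high libraries. Ighe stayed at 1 to 7 counts per library.

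Light chain genes and J chain gave a similar picture. Igkc, the kappa constant gene, was at 536.5, 538.5 and 551 against 272.1, 272.6 and 272.8 CPM, a log2 fold change of -0.99 ± 0.02 (SE). Iglc1 and Iglc2 were lower in Mmrn1-high cells, at -0.52 ± 0.11 and -1.39 ± 0.14, and Iglc3, at or below 1.14 CPM throughout, was higher (0.83 ± 0.30; edgeR adjusted p = 0.0409), a call that 6 alternatives ended, among them DESeq2 and leaving out replicate 1 or 2 of Mmrn1-low or replicate 1 or 3 of Mmrn1-high. Of 69 tested kappa V genes, 48 were called lower, where 30.5% of all tested genes were, and 8 higher, where 30.7% were. Igkv1-135 (43.2 ± 2.41 and 11.5 ± 0.353 CPM), Igkv3-2 (14.1 ± 0.753 and 1.67 ± 0.176 CPM) and Igkv17-127 (10.5 ± 0.869 and 1.13 ± 0.0514 CPM) had the smallest p-values. Jchain, whose protein links IgM and IgA into polymers, was at 111, 109 and 114 CPM in Mmrn1-low libraries and at 70.6, 71.2 and 32.3 CPM in the Mmrn1-high libraries. Mmrn1-high replicate 3 stood apart in Jchain, but not in the summed V level, which was 157.2 CPM there. With all 6 libraries Jchain was not called by edgeR (adjusted p = 0.0665) but was called lower by DESeq2 (-0.94 on the log2 scale), limma voom (-0.97) and limma on FPKM with a pseudocount of 1 (-0.84). Without that library edgeR called it lower, at -0.66. Germline heavy chain J segments were near the floor, with Ighj1 at 0.147 ± 0.0429 and 0.934 ± 0.130 CPM (edgeR adjusted p = 4.46e-04), and the 20 D segments had at most 2 counts each in a library.

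Genes that act on the locus were counted from a list of 19 for V(D)J joining and locus control, of which 7 were higher, 3 lower and 9 not called in Mmrn1-high cells, where 61.2% of all tested genes were called. The shares of the list stood near or below those of all tested genes, 30.7% higher and 30.5% lower. The list shares Dntt, Rag1, Rag2 and Pax5 with the B cell lists. Rad21, a cohesin subunit, was lower at -0.43 ± 0.03 and Hmgb2, a cofactor of the recombinase, at -0.53 ± 0.04 (edgeR log2 fold change ± SE). Among the factors that read the octamer of V promoters, Pou2f2 was higher (0.66 ± 0.05), while Pou2f1 (0.01 ± 0.05) and the coactivator Pou2af1 (-0.17 ± 0.12) were not called.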

How the data were processed

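The libraries held between 11595104 and 30909990 counts, and 3 counts correspond to 0.0971 to 0.259 CPM. The authors deposited raw counts and FPKM values per gene, per the file headers. HISAT2, StringTie, edgeR, CASAVA 1.8 and the build GRCm38 are listed, per the submitters' processing notes, with no role given. The kit was stranded and selected poly-A RNA, per the labels. The strand setting of the counting and the handling of reads that map to several V genes are not stated. Reads of a joined, mutated V exon can fail to align to the germline gene. The authors' FPKM used a gene length more than 5% above the union of annotated exons for 28 of 77 V genes with at least 20 counts in a library (by 2.11 times at most), so levels between genes were compared as CPM per kb of union exon (GENCODE M21). The whole table was fitted with edgeR 4.0.16 (R 4.3.3): quasi-likelihood F test, robust, TMM, filterByExpr, group as the only term, Benjamini-Hochberg adjustment over 15419 genes, threshold 0.05. The procedure was tested on simulated data. Alternatives used DESeq2 1.42.0, limma 3.58.1 and Python 3.11.15.

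Members and gene lists were chosen with earlier results of these data known. Named genes were the 12 V genes with the highest mean CPM, up to 4 with the largest non-overlapping difference in each direction, the 2 detected genes at each end of the locus, the constant genes and up to 4 genes with the smallest p of each other list. V genes with at least 50 counts of which 1 library held over 50% of the summed CPM were to be named, and there were 0. Floors and intervals cover counting error only.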

Additional observations from a re-analysis of the deposited data

How the results depend on the processing

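The direction of the summed V level held under each alternative run. Its log2 ratio of -1.16 moved to -1.01 with library size alone, -1.03 with the authors' FPKM, -1.10 without Ighv1-5, and, in alternatives chosen after seeing the data, -1.07 without genes at 3 counts or fewer in a group and -1.11 without genes that share windows of 100 bases. The median V gene moved from -1.31 to -1.16 with library size alone, -1.02 with FPKM and a pseudocount of 1, -1.20 with 0.1, and -0.52 with 1 and no filter. V counts per heavy constant count moved from -0.38 to -0.41 with FPKM, -0.33 without Ighv1-5 and -0.16 with Igkc as the denominator. The difference in effective number, -0.0242, moved to -4.16 with Shannon entropy, -1.99 with FPKM and -6.98 without Ighv1-5. The difference in detected genes moved from -10.7 to -6.39 at equal V counts, and that in the Ighv1 share from 4.22 to 6.65 percentage points without Ighv1-5. The cause was not tested.

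With each library left out in turn, 8 to 10 V genes were called higher and 51 to 55 lower, and 8601 to 8937 genes in all. The median ranged from -1.39 to -1.28, the summed level from -1.16 to -1.15, the ratio to constant counts from -0.40 to -0.38, the effective number from -0.269 to 0.428, the detected genes from -12.4 to -8.29 and the Ighv1 share from 3.76 to 4.57. Over the other settings 6 to 11 V genes were called higher and 49 to 59 lower. For named genes, 952 values kept direction and side of the threshold, 14 lost and 9 gained a call, and 5 reversed: Ighm to 0.109 with library size alone and to 0.108 under each of 3 FPKM settings, and Pou2f1 to -0.0053 without Mmrn1-low replicate 1 (0.0343 without Mmrn1-low replicate 2).

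Deviations of same-numbered libraries from their group means had r of 0.0426, -0.0785 and 0.0286 over genes. Pairs of unlike number had r of -0.0927 to 0.0715. Counting noise lowers such correlations, so they cannot tell whether libraries of the same number shared a mouse or a sort. With the replicate number as a block, 9 V genes were called higher and 53 lower, and 8923 genes in all. Depth limits the rarest genes: 3 counts are 0.0971 to 0.259 CPM.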

Other observations

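Close relatives among the V genes did not have to go the same way. Ighv1-75 and Ighv1-84 are 96.3% identical in coding sequence, with 15.7% and 17.1% of their windows of 100 bases found in another member. Ighv1-75 had 0.489 ± 0.0714 CPM in the Mmrn1-low libraries and 1.097 ± 0.162 in the Mmrn1-high ones, while Ighv1-84 was at 3.26 ± 0.143 and 0.0308 ± 0.0534 CPM (SD, n = 3). Ighv3-1 and Ighv3-6, 91.7% identical, differed in the same manner, with Ighv3-6 at 12.7 ± 0.479 and 7.94 ± 0.485 CPM. These pairs were chosen after their values were seen. Across 109 V genes with a count, Pearson's r of the shares of counts was 0.767 between the pooled groups, 0.988 to 0.991 between Mmrn1-low libraries and 0.978 to 0.984 between Mmrn1-high libraries. This correlation is across genes, which are not independent replicates.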
